A study of Mus musculus with 24 samples.

Results

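Chemokines and interleukins are secreted proteins that carry signals between immune cells and the tissue they enter, and this account describes every chemokine, interleukin and receptor of either family that the array measured in mouse uterus. Members were probe sets whose platform annotation names 1 gene with a symbol beginning Ccl, Cxcl, Ccr, Cxcr or Il and followed by a digit, leaving out Il6st, Il11ra1 and Il13ra2. The rule used no measured value. It found 91 of 12488 probe sets, which name 78 genes. Of these, 2 are control probe sets of the platform, and the other 89, which cover all 78 genes, were tested among 12422 probe sets. They comprise 15 probe sets for 14 CC chemokines, 11 for 8 CXC chemokines, 13 for 13 chemokine receptors, 25 for 22 interleukins with their natural inhibitors Il1rn and Il18bp, and 25 for 21 interleukin receptor chains. A further 6 probe sets that name a gene of these families together with another gene were left out.

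Chemokines bind G protein-coupled receptors and draw cells along a gradient, while interleukins mostly bind paired receptor chains that act through JAK and STAT proteins or, for the interleukin-1 family, through the adaptor Myd88. In the uterus these signals are known for the traffic of macrophages, granulocytes, dendritic cells and natural killer cells during the cycle and at implantation. Progesterone is generally known as a hormone that restrains inflammation in this tissue.

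The study asked which uterine genes respond to progesterone (P4) through its receptor. It used progesterone receptor knockout (PRKO) and wild-type (WT) mice. All mice had been ovariectomized at 6 weeks of age and rested for 2 weeks, so every group lacked ovarian hormone before treatment. Mice then received 1 mg P4 per mouse in sesame oil, or the oil vehicle. The uteri were taken 4 h after a single injection (the 4 h groups), or 4 h after the last of 4 injections spaced by 12 h (the 40 h groups). The 8 groups were thus PRKO with P4, PRKO with vehicle, WT with P4 and WT with vehicle at each time, with 3 arrays per group and 24 in all. Each RNA sample pooled the uteri of 5 mice that shared genotype and treatment, and nothing states that the 3 arrays of a group came from separate pools. All p-values therefore measure the spread between arrays, which may be technical. In PRKO mice the receptor gene is disrupted from conception and in all tissues, so effects of P4 and of development without its receptor cannot be told apart in a difference between genotypes.

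Values are deposited signals, rescaled so that the trimmed mean of each array is 500, and log2 changes were taken after adding 32. Each fold below is computed from such a log2 change, so for low signals it understates the change of the signals themselves. Ratios of group means are of signals without 32 added. Deposited array medians lay between 323.2 and 342.6. RNA integrity was read from Gapdh, as the signal at its 3' end over that at its 5' end, which was 3.67 on WT vehicle 4 h array 2 and 3.25 on WT P4 4 h array 2, against 1.23 to 1.86 on the other arrays. The probe set for Pgr, the receptor itself, read 121, 130.3 and 126 in PRKO vehicle uteri at 4 h, against 140.1, 149 and 145 in WT vehicle uteri, with no overlap and an adjusted p of 1. In vehicle uteri at 40 h its means were 129 in PRKO and 147 in WT (SDs 9.59 and 16.1, n = 3 each, adjusted p = 1). Under P4 at 40 h Pgr was lower in PRKO than in WT, at -0.34 ± 0.08 (adjusted p = 0.0307). No source at hand says whether that probe set lies in the deleted stretch, so it does not check the labels. Of 9 uterine identity genes 8 were measured.

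Most members had low signals. The median member had a mean signal of 142.3, 68 of 89 members (76.4%) lay under the median of all tested probe sets, which was 332, and 30 of 89 (33.7%) lay under 100, against 16.1% of all tested probe sets. No detection calls were used, so a low signal cannot be told from background here. Levels of different probe sets are not comparable with each other, and only differences of 1 probe set between groups are read below. Across the 8 groups the members were nearly flat, though their range was not compared with that of all probe sets. The ratio of a member's highest to its lowest group mean had a median of 1.22 and passed 1.5 for 6 of 89 members. These 6 were Cxcr4 at 3.27, Cxcl14 at 2.23, Il5ra at 1.83 on a mean signal of only 6.90, Il18r1 at 1.65, Ccr7 at 1.60 and 1 of the 3 Cxcl12 probe sets at 1.54. For Ccr7 that ratio rested on WT vehicle array 2 at 4 h, which read 273 beside 90.4 and 96.7 on the other arrays of its group.

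P4 changed few of these genes. With limma and Benjamini-Hochberg adjustment over all 12422 probe sets, 0 of 89 members passed an adjusted p of 0.05 for P4 in PRKO uteri at 4 h, where 0% of all probe sets passed. At an unadjusted p under 0.05 there were 0 members, against 1.9% of all. In PRKO uteri at 40 h 0 members passed (0% of all), with 5 at an unadjusted p under 0.05, all lower (6.69% of all, 4.79% in that direction). In WT uteri at 4 h 0 members passed (0.708% of all), with 7 at an unadjusted p under 0.05 (6.23% of all). In WT uteri at 40 h 0 members passed (1.54% of all), with 6 at an unadjusted p under 0.05, all lower (11.7% of all, 6.21% in that direction). The share of members at an unadjusted p under 0.05 in WT uteri at 40 h was thus 6.74%, below that of all probe sets, and 0 members were higher there, against 5.5% of all. Same-numbered arrays of the WT 4 h comparison deviated together, but not every array correlated best with its own number. Both arrays numbered 2 there are those of high Gapdh ratio, and the part of RNA integrity in this was not tested. With the replicate number as a block 2 members passed in that comparison, Cxcr4 (adjusted p = 0.0146) and Il16 (adjusted p = 0.0324). The share of all probe sets in that setting is not given here, so this count is not a trait shown for the members. Most changes were bounded tightly: the 95% interval lay within 0.5 of 0 on the log2 scale for 86 of 89 members in PRKO uteri at 4 h, 83 in PRKO uteri at 40 h, 79 in WT uteri at 4 h and 83 in WT uteri at 40 h.

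**Figure D1:**
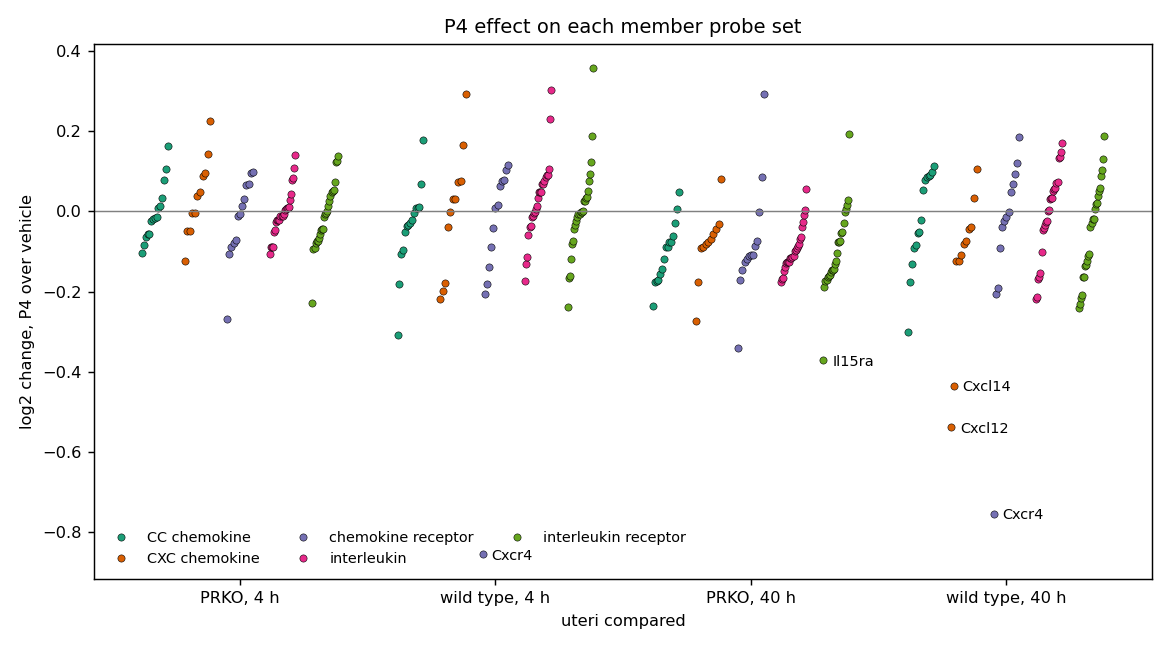
Log2 change of P4 over vehicle for each of the 89 member probe sets (1 point each), by class, in PRKO and WT uteri at 4 h and at 40 h. Most points lie close to 0, Cxcr4 stands lowest in WT uteri at both times (-0.86 at 4 h and -0.76 at 40 h), and in PRKO uteri at 40 h 78 of 89 points lie below 0.

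Because Cxcr4 and Il10rb were low at both times, the effect averaged over 4 h and 40 h was also fitted, in a comparison added after seeing the data. Its values for those genes restate what prompted it, and its p-values are no independent test of them. The same holds for the other comparisons added after seeing the data. For P4 in PRKO uteri 0 members passed this average (0% of all), with 4 at an unadjusted p under 0.05 (4.6% of all). In WT uteri 2 members passed, both lower, the Cxcr4 and Il10rb that had prompted it (1.31% of all, 0.636% in that direction). The difference of the averaged P4 effect, PRKO minus WT, had 0 members (0.225% of all), with 12 at an unadjusted p under 0.05 (8.94% of all). At single times the same difference had 0 members at 4 h (0.0966% of all), with 3 at an unadjusted p under 0.05 (3.49% of all), and 0 at 40 h (0.105% of all), with 7 at an unadjusted p under 0.05 (9.1% of all). An effect that passed in WT and not in PRKO uteri is thus not shown to differ between the genotypes in the fit used here.

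Among the ligands, the CXC chemokine Cxcl14, an epithelial chemokine known to attract monocytes and natural killer cells, carried the clearest difference, and it followed genotype. In vehicle uteri at 4 h its signals were 674, 772 and 502 in PRKO, against 426, 473 and 338 in WT. In vehicle uteri at 40 h they were 767, 748 and 643 in PRKO, against 466, 416 and 459 in WT. Every PRKO array read above every WT array at each time. The log2 change of PRKO over WT in vehicle uteri was 0.61 ± 0.15 (SE) at 4 h (adjusted p = 0.168) and 0.65 ± 0.15 at 40 h (adjusted p = 0.173). Averaged over both times, a comparison added after seeing the data, it was 0.63 ± 0.11, a fold of 1.54 with an adjusted p of 0.00562. Since these are whole uteri, fewer cells of a type and less RNA per cell cannot be told apart, for this and every later result.

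With P4 the genotype difference in Cxcl14 was 0.36 ± 0.15 at 4 h (adjusted p = 0.482), and at 40 h PRKO uteri were higher by 0.81 ± 0.15, a fold of 1.75 (adjusted p = 0.00453). P4 arrays at 40 h read 560.5, 557 and 650.0 in PRKO, against 283, 333 and 353 in WT. Within WT uteri, P4 and vehicle arrays did not overlap at 40 h, with P4 lower by a log2 change of -0.44 ± 0.15 (adjusted p = 0.183). At 4 h the WT P4 arrays, 574, 576 and 396, overlapped the vehicle arrays, with a log2 change of 0.29 ± 0.15 (adjusted p = 0.852). In the 40 h minus 4 h difference of the WT effect 0 members passed (0.475% of all), with 5 at an unadjusted p under 0.05 (6.39% of all), and Cxcl14 was at -0.73 ± 0.21 (adjusted p = 0.174). It passed without WT P4 4 h array 3 (adjusted p = 0.0335). In PRKO uteri the P4 effect was 0.05 at 4 h (adjusted p = 1) and -0.27 ± 0.15 at 40 h (adjusted p = 0.703), and the PRKO minus WT difference of the effect at 40 h was 0.16 ± 0.21 (adjusted p = 0.848).

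Progesterone receptor is known to bind DNA at half-sites of the form AGAACA or its complement TGTTCT. The stretches before the start of the 2 members with the widest range between groups are therefore shown. They are the windows from 250 bases before to 50 bases after the transcription start in RefSeq on GRCm38.p6, read 5′ to 3′ on the gene's strand with the half-site in capitals. The Cxcr4 window is chr1:128592250-128592549 on the minus strand, with its half-site beginning 185 bases before the start. The Cxcl14 window is chr13:56296502-56296801 on the minus strand, with its half-site 193 bases before the start.
Cxcr4: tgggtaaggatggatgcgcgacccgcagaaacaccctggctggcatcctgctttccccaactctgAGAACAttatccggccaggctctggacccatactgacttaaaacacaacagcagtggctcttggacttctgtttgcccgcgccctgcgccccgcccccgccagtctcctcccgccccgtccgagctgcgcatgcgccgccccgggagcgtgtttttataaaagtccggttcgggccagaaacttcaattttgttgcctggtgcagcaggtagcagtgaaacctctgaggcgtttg
Cxcl14: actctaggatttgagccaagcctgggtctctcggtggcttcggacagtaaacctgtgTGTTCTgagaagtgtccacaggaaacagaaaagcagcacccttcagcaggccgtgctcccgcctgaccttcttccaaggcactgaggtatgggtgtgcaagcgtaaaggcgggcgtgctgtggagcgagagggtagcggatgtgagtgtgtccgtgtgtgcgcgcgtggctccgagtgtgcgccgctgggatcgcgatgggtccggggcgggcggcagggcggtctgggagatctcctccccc
A half-site on either strand is common: 19% of 32851 such windows hold one, and among members 12 of 75 windows (16%) do. The table held windows for 61 of the 78 genes, of which 12 (19.7%) have a half-site in some window, against 21.3% of all genes. Of the other members that passed in some comparison, Cxcr2 has a half-site in a window and Il18r1 has 0 in its 3 windows. Il15ra is not among the 12 genes with a half-site, and no window was available for Il10rb. The paired form, in which the core of a half-site faces its complement across a gap, was also searched. It was found in 0 of 75 member windows, against 0.475% of all windows. A match describes these letters only and is not a binding site.

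Cxcl12, the ligand of Cxcr4 and a stromal chemokine, was read by 3 probe sets that disagreed. On the one with the suffix f, which marks probes that may match several related sequences, the WT arrays at 40 h read 455, 469.8 and 419 with P4 and 485, 719 and 837 with vehicle. The groups do not overlap, and the log2 change was -0.54 ± 0.18 (adjusted p = 0.155). Without WT vehicle 40 h array 1 it was -0.75 (adjusted p = 0.028). In the same comparison the Cxcl12 probe set of highest signal gave -0.04 ± 0.20 (adjusted p = 0.965) and the remaining one -0.12 ± 0.13 (adjusted p = 0.792). On that of highest signal the means at 40 h were 1940.3 with P4 and 2050.0 with vehicle in WT uteri (SDs 183 and 574, n = 3 each). On that probe set P4 gave 0.23 ± 0.20 in PRKO uteri at 4 h (adjusted p = 1), a PRKO minus WT difference of 0.41 ± 0.28 (adjusted p = 1). The PRKO minus WT difference at 40 h on the probe set with the suffix f was 0.51 ± 0.25 (adjusted p = 0.548). No probe set of Cxcl12 passed in any comparison of the fit reported here.

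**Figure D2:**
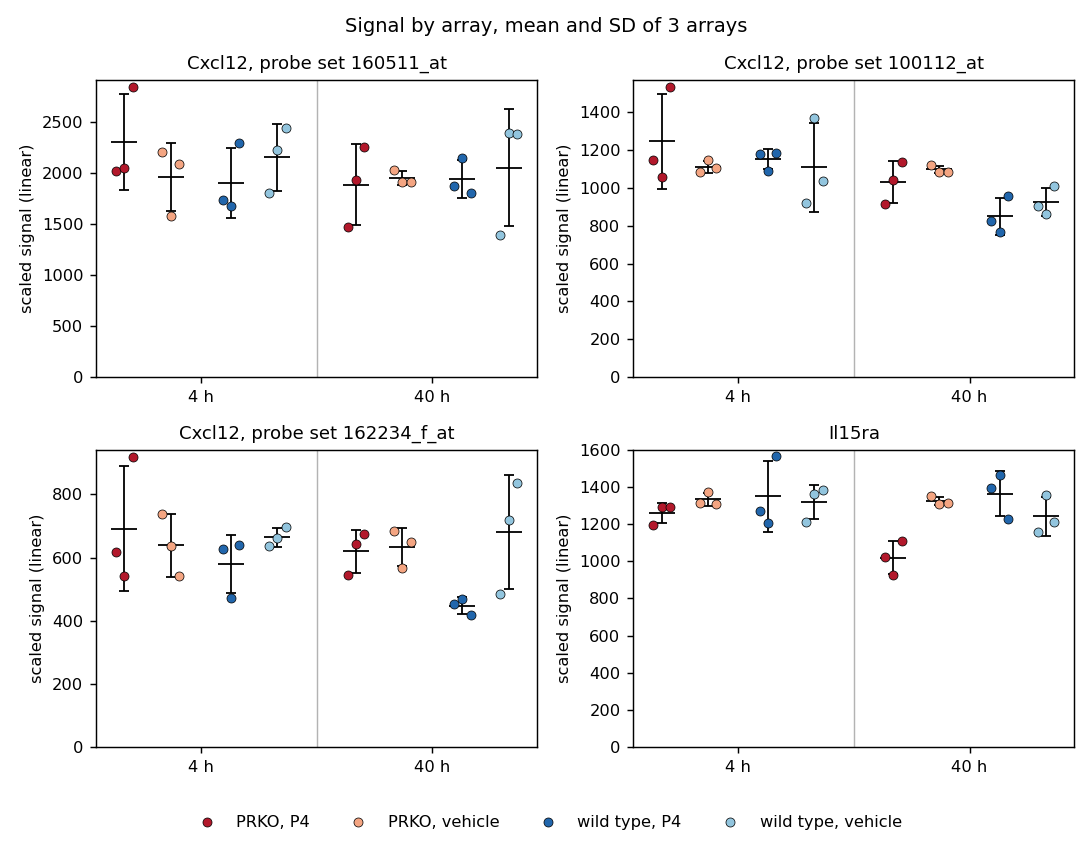
Scaled signal on each array (points) with the mean and SD of 3 arrays for the 3 Cxcl12 probe sets and for Il15ra, in the 8 groups. On the Cxcl12 probe set with the suffix f the 3 WT P4 arrays at 40 h, 419 to 469.8, lie below the 3 WT vehicle arrays, 485 to 837, while on the other Cxcl12 probe sets these groups overlap, and Il15ra is lowest in PRKO P4 uteri at 40 h.

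No other chemokine ligand passed in the fit reported here. The largest change among them was that of Ccl9, a macrophage chemokine that binds Ccr1 in mice, for PRKO against WT in vehicle uteri at 4 h. It read 132, 166 and 146 in PRKO, against 147, 191 and 305 in WT, where the groups overlap and WT vehicle array 3 stands highest. The log2 change was -0.40 ± 0.15 (adjusted p = 0.762). In the same comparison Ccl6, a macrophage product that binds Ccr1 in mice, was at -0.33 ± 0.17 (adjusted p = 1). Ccl1 came nearer to passing for PRKO against WT under P4 at 40 h, a comparison added after seeing the data. It was at -0.28 ± 0.07 on its probe set with the suffix g (adjusted p = 0.0509). On its other probe set it was at -0.15 ± 0.11 (adjusted p = 0.412). Ccl22, which attracts T cells through Ccr4, is one of the 3 CC chemokine probe sets of highest signal, with means of 655 with P4 and 743 with vehicle in PRKO uteri at 40 h, and 705 with P4 and 748 with vehicle in WT uteri at 40 h (SDs 14.2, 55.1, 64.9 and 35.6). Ccl5, which attracts T cells and monocytes, averaged 457 ± 30.9 with P4 and 523 ± 75.1 with vehicle in WT uteri at 40 h, a log2 change of -0.18 ± 0.13 (adjusted p = 0.684). Ccl6 gave -0.31 ± 0.17 for P4 in WT uteri at 4 h (adjusted p = 0.9) and -0.30 ± 0.17 at 40 h (adjusted p = 0.524). Its WT arrays at 4 h read 361, 334 and 476 with P4, against 419, 383 and 709 with vehicle, and overlap. Ccl25, the ligand of Ccr9, read 83.6, 80.2 and 82.1 with P4 in WT uteri at 4 h, against 66.4, 71 and 69.1 with vehicle. Those groups do not overlap, and the change was 0.18 ± 0.06 (adjusted p = 0.464). Ccl8, a ligand of Ccr8 in mice, was at -0.24 ± 0.09 for P4 in PRKO uteri at 40 h (adjusted p = 0.703). Ccl11, which attracts eosinophils, was at 0.16 ± 0.10 for P4 in PRKO uteri at 4 h (adjusted p = 1). Cxcl1, which attracts neutrophils, was at -0.22 ± 0.18 for P4 in WT uteri at 4 h (adjusted p = 0.983) on its probe set with the suffix g, and the sign turned without WT vehicle array 2.

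Of the chemokine receptors, Cxcr4 gave the largest change of any member for P4 in WT uteri at each time. It is the receptor for Cxcl12, carried by most leukocytes and by some endothelial and epithelial cells. In PRKO uteri at 4 h it read 209, 110.0 and 202 with P4, against 264, 224 and 153 with vehicle. In WT uteri at 4 h it read 78.5, 50.4 and 80.9 with P4, against 234, 82.3 and 169 with vehicle. The WT groups do not overlap, but WT vehicle array 2, at 82.3, lies just above the highest P4 array, and it is one of the arrays with a high Gapdh ratio. In PRKO uteri at 40 h Cxcr4 read 196, 261 and 231 with P4, against 173, 199 and 168 with vehicle. In WT uteri at 40 h it read 76.2, 80.3 and 68.3 with P4, against 135, 154 and 157 with vehicle. At 40 h every WT P4 array lay well below every WT vehicle array, whereas the PRKO groups overlapped with the P4 mean above the vehicle mean.

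The log2 change of Cxcr4 with P4 in PRKO uteri was -0.27 at 4 h (adjusted p = 1) and 0.29 at 40 h (adjusted p = 0.733). In WT uteri it was -0.86 ± 0.23, a fold of 0.552 (adjusted p = 0.124) at 4 h and -0.76 ± 0.23, a fold of 0.592 (adjusted p = 0.127) at 40 h. Averaged over both times, the change was 0.01 ± 0.16 in PRKO uteri (95% interval -0.33 to 0.35, adjusted p = 0.997), and -0.81 ± 0.16 in WT uteri, a fold of 0.572 (adjusted p = 0.0115, in the average that Cxcr4 itself prompted). The PRKO minus WT difference of that average was 0.82 ± 0.23 (95% interval 0.34 to 1.30), with an adjusted p of 0.217. Without WT vehicle 4 h array 2 the WT change at 4 h was -1.20 (adjusted p = 0.00659) and the difference of the average passed (adjusted p = 0.0268). Without both arrays of high Gapdh ratio the WT change at 4 h was -1.05 (adjusted p = 0.0481).

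Set against each other under P4, in comparisons added after seeing the data, the genotypes differed in Cxcr4 at both times. Under P4 at 4 h Cxcr4 was the 1 member that passed (1.22% of all; 8 members at an unadjusted p under 0.05, 7.81% of all), higher in PRKO by 0.99 ± 0.23, a fold of 1.98 (adjusted p = 0.0349). That call was lost without PRKO P4 4 h array 1 (adjusted p = 0.226) or 3 (adjusted p = 0.169) and without WT P4 4 h array 1 (adjusted p = 0.0852) or 2 (adjusted p = 0.238). Under P4 at 40 h 4 members passed (2.59% of all; 28 at an unadjusted p under 0.05, 22.2% of all): Cxcr4 and Cxcl14 were higher in PRKO, and Il15ra and Cxcr2 were lower. Cxcr4 was higher by 1.28 ± 0.23, a fold of 2.43 (adjusted p = 0.00398). In vehicle uteri the genotype difference in Cxcr4 was 0.40 ± 0.23 at 4 h and 0.23 ± 0.23 at 40 h (adjusted p = 1 for each).

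**Figure D3:**
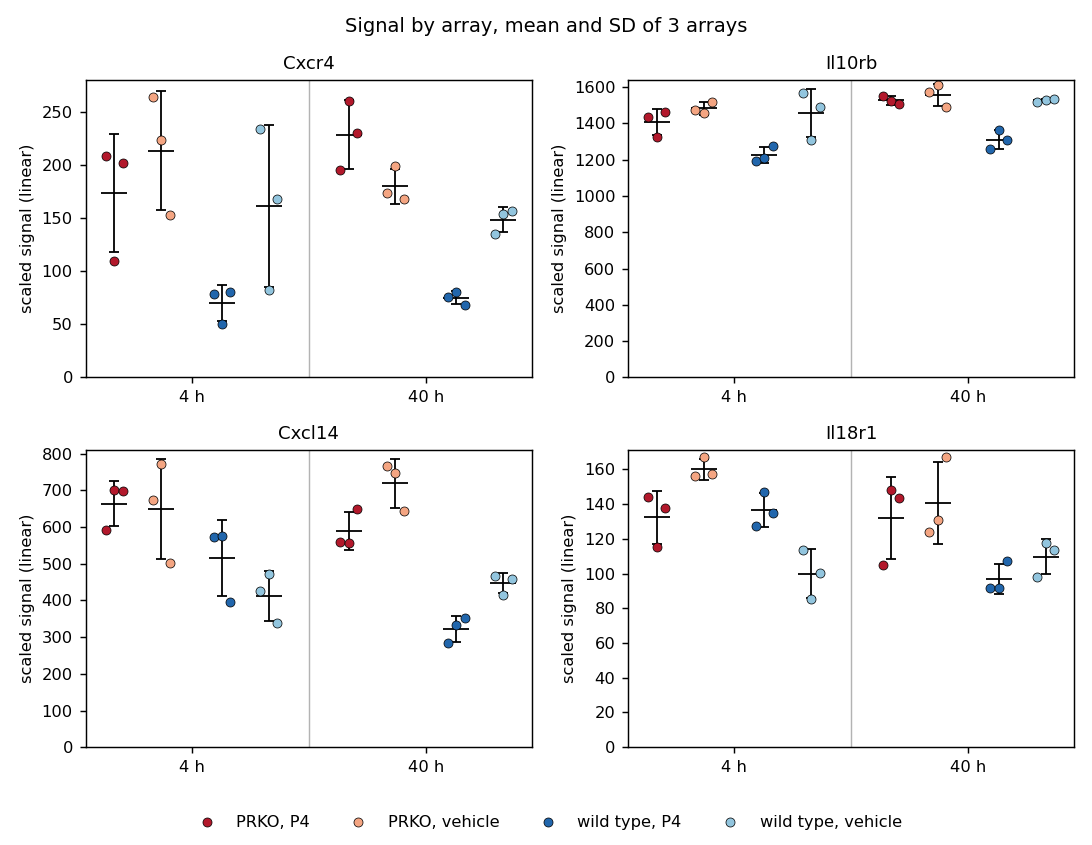
Scaled signal on each array (points) with the mean and SD of 3 arrays for Cxcr4, Il10rb, Cxcl14 and Il18r1, with PRKO P4, PRKO vehicle, WT P4 and WT vehicle at each time. Cxcr4 and Il10rb are lowest in the WT P4 groups at both times, and Cxcl14 is higher in PRKO than in WT vehicle uteri on every array.

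Cxcr2, the neutrophil receptor for Cxcl1, Cxcl2 and Cxcl5, had low signals, and under P4 at 40 h it read 72, 70.4 and 77 in PRKO, against 99.3, 100.0 and 90.3 in WT. The groups do not overlap, and it was lower in PRKO by a log2 change of -0.29 ± 0.07, a fold of 0.818 (adjusted p = 0.0357). The call was lost without array 1 (adjusted p = 0.107) or 2 (adjusted p = 0.181) of the PRKO P4 group, without array 1 (adjusted p = 0.114) or 2 (adjusted p = 0.136) of the WT P4 group, and after quantile normalization (adjusted p = 0.0664). Its own P4 effect at 40 h was -0.13 in PRKO uteri (adjusted p = 0.703) and 0.12 in WT uteri (adjusted p = 0.57). The brightest receptors of the class were Ccr2, which brings monocytes into tissue, Ccr6, which answers Ccl20, and Cxcr3, carried by activated T cells. In WT uteri at 40 h Ccr2 averaged 367 ± 44.9 with P4 and 423 ± 40.6 with vehicle, a change of -0.19 ± 0.13 (adjusted p = 0.619). Ccr6 was at 0.18 ± 0.10 in the same comparison (adjusted p = 0.525). Cxcr3 was at -0.21 ± 0.09 for P4 in WT uteri at 4 h (adjusted p = 0.619) and -0.02 ± 0.09 at 40 h (adjusted p = 0.949). Ccr1l1, a relative of Ccr1 in mice, was at -0.34 ± 0.15 for P4 in PRKO uteri at 40 h (adjusted p = 0.703), reading 135, 119 and 158 with P4, against 177, 187 and 179 with vehicle, with no overlap. Ccr9 was at -0.16 ± 0.09 for PRKO against WT in vehicle uteri at 40 h (adjusted p = 1). The 40 h minus 4 h difference of the WT effect was 0.18 ± 0.13 for Ccr4 (adjusted p = 0.964) and 0.18 ± 0.12 for Cxcr3 (adjusted p = 0.952).

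With limma, 0 of the 25 interleukin probe sets passed in any comparison of the fit without a block. For P4 in WT uteri 1 was at an unadjusted p under 0.05 at each time. All 25 had 95% intervals within 0.5 of 0 for P4 in each genotype at each time, on the scale that draws changes of low signals toward 0. Il16, which attracts CD4+ cells, came nearest. Its WT arrays at 4 h read 232, 220.2 and 192 with P4, against 185, 163 and 156 with vehicle, and do not overlap. The change was 0.30 ± 0.08 (adjusted p = 0.124). It passed with the replicate number as a block (adjusted p = 0.0324) and without WT P4 4 h array 3 (adjusted p = 0.0396). In PRKO uteri at 4 h Il16 read 189, 169 and 184 with P4, against 185, 184 and 183 with vehicle, which overlap, and the PRKO minus WT difference was -0.32 ± 0.12 (adjusted p = 0.874). Il9, a growth factor for mast cells and T cells, was at -0.22 ± 0.10 for P4 in WT uteri at 40 h (adjusted p = 0.406), with means of 559 ± 53 under P4 and 655 ± 19.7 under vehicle.

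The cytokines that define type 2 responses, Il4 and Il13, gave -0.16 ± 0.14 on the brightest Il4 probe set (adjusted p = 0.72) and -0.10 ± 0.12 for Il13 (adjusted p = 0.821) with P4 in WT uteri at 40 h. For PRKO against WT in vehicle uteri at 40 h Il13 was at -0.16 ± 0.12 (adjusted p = 1). Il12a, a subunit of Il12, was at 0.23 ± 0.12 for P4 in WT uteri at 4 h (adjusted p = 0.892). The inflammatory cytokines Il1a, Il1b and Il6 had low signals. In WT uteri at 40 h Il1a read 62.7, 49.7 and 63.2 with P4, against 51.6, 47.4 and 45.6 with vehicle, and the change was 0.17 ± 0.09 (adjusted p = 0.498). Il1b read 93.2, 108 and 107 with P4, against 88.2, 84 and 96.3 with vehicle, and the change was 0.15 ± 0.07 (adjusted p = 0.445). Both pairs of groups overlap. Il6 averaged 82.1 ± 14.9 with P4 and 76.1 ± 7.53 with vehicle. At 4 h the Il1b means were 78.2 ± 3.68 with P4 and 78.5 ± 8.75 with vehicle in WT uteri.

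Of the interleukin receptor chains, Il10rb was lower with P4 on every WT array at each time, at -0.24 ± 0.07 at 4 h (adjusted p = 0.18) and -0.22 ± 0.07 at 40 h (adjusted p = 0.145), and passed at neither time. It is the shared second chain of the receptors for Il10, Il22 and the interferon lambda family. In PRKO uteri it read 1433, 1327 and 1465 with P4 and 1472, 1455 and 1519.6 with vehicle at 4 h, and 1551, 1524 and 1505 with P4 and 1574, 1609.7 and 1492 with vehicle at 40 h. In WT uteri it read 1194, 1209 and 1273 with P4 and 1565, 1308 and 1492 with vehicle at 4 h, and 1261, 1362 and 1308 with P4 and 1519.6, 1528 and 1532 with vehicle at 40 h. The WT groups do not overlap at either time, and the PRKO groups overlap at both. The averaged change was -0.05 ± 0.05 in PRKO uteri (adjusted p = 0.946) and -0.23 ± 0.05, a fold of 0.854, in WT uteri (adjusted p = 0.0167, in the average that Il10rb helped to prompt). That call was lost without array 1 of the WT P4 4 h group (adjusted p = 0.0554), the WT vehicle 4 h group (adjusted p = 0.0592) or the WT P4 40 h group (adjusted p = 0.0533). The PRKO minus WT difference was 0.18 ± 0.07 (95% interval 0.03 to 0.32, adjusted p = 0.413).

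Il18r1, the chain of the Il18 receptor that binds the cytokine, was the 1 member that passed between genotypes in vehicle uteri at 4 h (0.185% of all, with 3 members at an unadjusted p under 0.05 and 5.02% of all). It read 156, 167 and 157 in PRKO, against 114, 85.5 and 100.5 in WT, with no overlap. It was higher in PRKO by 0.55 ± 0.11, a fold of 1.46 (adjusted p = 0.042). The call was lost on leaving out any PRKO vehicle 4 h array (adjusted p = 0.0906 without 1, 0.244 without 2 and 0.124 without 3) or WT vehicle 4 h array 2 (adjusted p = 0.151) or 3 (adjusted p = 0.154). In vehicle uteri at 40 h it read 124, 131 and 167 in PRKO, against 98.2, 117 and 114 in WT, a change of 0.28 ± 0.11 (adjusted p = 1), and there 0 members passed (0.0644% of all, with 2 members at an unadjusted p under 0.05 and 3.08% of all). In the genotype difference averaged over both times 2 members passed, both higher in PRKO, Cxcl14 and Il18r1 (0.443% of all, 0.25% in that direction, with 3 members at an unadjusted p under 0.05 and 5.6% of all). Il18r1 was at 0.41 ± 0.08, a fold of 1.33 (adjusted p = 0.0136), and the call was lost without PRKO vehicle 40 h array 3 (adjusted p = 0.0509) or WT vehicle 40 h array 1 (adjusted p = 0.0524).

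With P4 at 4 h Il18r1 read 144, 115 and 138 in PRKO uteri, against 127, 147 and 135 in WT uteri, and the genotypes overlapped. The P4 effect at 4 h was -0.23 ± 0.11 in PRKO uteri (adjusted p = 1) and 0.36 ± 0.11 in WT uteri (adjusted p = 0.249), a PRKO minus WT difference of -0.58 ± 0.16 (adjusted p = 0.339). The partners of Il18r1 were flat between genotypes in vehicle uteri at 4 h: its second chain Il18rap averaged 154 ± 10.5 in PRKO and 142 ± 13.3 in WT, and the cytokine Il18 averaged 95.2 ± 5.71 in PRKO and 96.6 ± 12.2 in WT. Their changes were 0.10 ± 0.09 for Il18rap and -0.01 ± 0.09 for Il18 (adjusted p = 1 for each).

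Il15ra, which presents Il15 to natural killer cells and T cells, was lowest in PRKO uteri given P4 for 40 h. At 40 h it read 1024, 927 and 1107 with P4 and 1351, 1310.3 and 1314 with vehicle in PRKO uteri, and 1392, 1466 and 1229.8 with P4 and 1157, 1358 and 1211 with vehicle in WT uteri. The PRKO groups do not overlap and the WT groups do. The P4 effect was -0.37 ± 0.09 in PRKO uteri (adjusted p = 0.703) and 0.13 in WT uteri (adjusted p = 0.667), with a difference of -0.50 ± 0.13 (adjusted p = 0.263). Under P4 at 40 h Il15ra was lower in PRKO than in WT, with a log2 change of -0.41 ± 0.09 and a fold of 0.754 (adjusted p = 0.0241). The call was lost without array 1 (adjusted p = 0.0706) or 2 (adjusted p = 0.178) of the PRKO P4 group and without array 1 (adjusted p = 0.085) or 2 (adjusted p = 0.127) of the WT P4 group. Its ligand Il15 averaged 191 ± 3.78 in PRKO and 177 ± 31 in WT uteri under P4 at 40 h, a change of 0.10 ± 0.15 (adjusted p = 0.733). Il27ra, a chain of the Il27 receptor, stayed between group means of 1023 and 1194 and was at -0.02 ± 0.14 for P4 in WT uteri at 40 h (adjusted p = 0.975).

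The remaining receptor chains at the ends of a comparison did not pass. Il3ra, the chain of the Il3 receptor that binds the cytokine, was at 0.19 ± 0.12 for P4 in WT uteri at 40 h (adjusted p = 0.588), with a PRKO minus WT difference of -0.35 ± 0.16 (adjusted p = 0.548). Il3ra read, under P4 at 40 h, 221, 238 and 317 in PRKO, against 369, 340.4 and 311 in WT, and these groups overlap (log2 change -0.37 ± 0.12, adjusted p = 0.0872). Il1r1, the signalling receptor of Il1a and Il1b, was at 0.19 ± 0.17 for P4 in PRKO uteri at 40 h (adjusted p = 0.753). Il13ra1, a chain of the Il13 receptor, was at -0.23 ± 0.10 for PRKO against WT under P4 at 4 h (adjusted p = 0.57). The 40 h minus 4 h difference of the WT effect was -0.49 ± 0.16 for Il18r1 (adjusted p = 0.265).

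**Figure D4:**
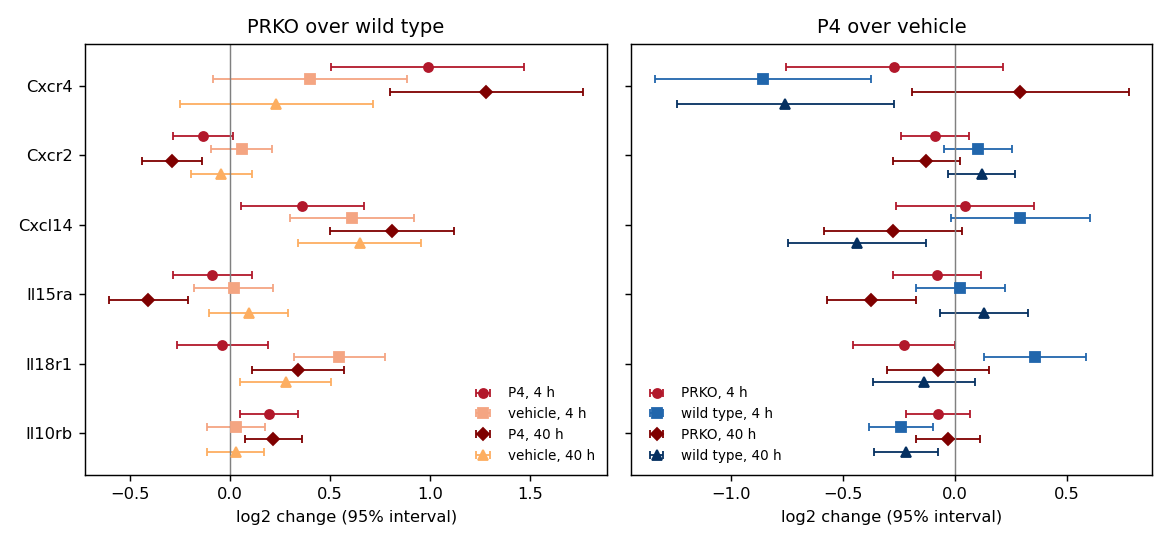
Log2 differences with 95% intervals for Cxcr4, Cxcr2, Cxcl14, Il15ra, Il18r1 and Il10rb, on the left PRKO over WT under P4 and under vehicle at each time, on the right P4 over vehicle in PRKO and in WT uteri at each time. The intervals of Cxcr4 and Il10rb for P4 lie below 0 in WT uteri at both times and include 0 in PRKO uteri, and those of Cxcl14 for PRKO over WT lie above 0 at both times under vehicle and under P4.

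In PRKO uteri at 40 h the members were low together, by small amounts. With P4, 78 of 89 members had a log2 change below 0 and 11 above it, against 36.6% of all tested probe sets above 0, and the medians were -0.098 for the members, -0.042 for all probe sets and -0.074 for probe sets of signal under the median. The count was 13 of 15 CC chemokines, 10 of 11 CXC chemokines, 11 of 13 chemokine receptors, 23 of 25 interleukins and 21 of 25 interleukin receptors. The 3 P4 arrays lay wholly below the 3 vehicle arrays for 28 members (31.5%), against 16.4% of all probe sets and 20.8% of those of lower signal, and wholly above for 0 members, against 5.88% of all. The shift depended on scaling, since quantile normalization gave 68 members below 0 and a median of -0.047, with -0.011 for all probe sets. With signals as deposited 74 were below 0, the median was -0.071, and it was -0.015 for all. Set against WT uteri under P4 at 40 h, the PRKO arrays lay wholly below for 34 members (38.2%), against 23.6% of all probe sets and 30.4% of those of lower signal, and wholly above for 7 (11.5% of all). Both comparisons use the same PRKO P4 arrays. Several leukocyte lists were low beside them for P4 in PRKO uteri at 40 h. There 1 of 12 T cell genes had a change above 0, with a median of -0.146 and 6 at an unadjusted p under 0.05 (6.69% of all). Each of the other leukocyte lists had at most 2 at that level. Changes above 0 were seen for 0 of 11 neutrophil, 0 of 5 dendritic cell, 0 of 4 eosinophil, 1 of 10 mast cell, 1 of 6 natural killer cell and 2 of 8 B cell genes. For macrophage genes the count was 5 of 14 and for pan-leukocyte genes 4 of 13, near the 36.6% of all probe sets. The summed T cell signal was 3596 to 4025 with P4 and 4125 to 4354 with vehicle in PRKO uteri at 40 h, and the summed neutrophil signal was 2476 to 2681 with P4 and 2703 to 3078 with vehicle. The summed macrophage signal overlapped there, at 5804 to 6623 with P4 and 5993 to 6481 with vehicle. With limma 0 genes of these lists passed there, and their part in the members' values was not tested. PRKO P4 uteri at 40 h had the lowest of the 8 group means for 34 of 89 members. That count was not made over all probe sets, which were also shifted down there, so it is not a trait shown for the members. In the WT 40 h comparison 10 members lay wholly lower with P4 (10% of all) and 4 wholly higher (9.76% of all).

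Genes of chemokine and cytokine signalling were followed in a list of 73, chosen with earlier results of these data known, of which 59 were measured. The list holds ligands and receptors as well as adaptors and transcription factors, so its changes are not readouts downstream of the members. In PRKO uteri 0 of 59 passed for P4 at 4 h, with 0 at an unadjusted p under 0.05 (1.9% of all probe sets). At 40 h 0 passed there, with 6 at an unadjusted p under 0.05 (6.69% of all). In WT uteri 2 rose at 4 h, Myd88 and Il13ra2 (0.708% of all passed), with 11 of 59 at an unadjusted p under 0.05 (6.23% of all). At 40 h 1 rose in WT uteri, Myd88 (1.54% of all passed), with 12 at an unadjusted p under 0.05 (11.7% of all). Myd88, the adaptor of the interleukin-1 and interleukin-18 receptors and of Toll-like receptors, read 801, 875 and 635 with P4 in WT uteri at 4 h, against 382, 423 and 455 with vehicle. At 40 h it read 723, 570.5 and 719 with P4 in WT uteri, against 579, 323 and 316 with vehicle, where 1 vehicle array overlaps. The changes were 0.82 ± 0.17 at 4 h (adjusted p = 0.0145) and 0.73 ± 0.17 at 40 h (adjusted p = 0.0253). In PRKO uteri the means were 298 ± 39 with P4 and 303 ± 34 with vehicle at 4 h, and 287 ± 27 with P4 and 289.6 ± 20.9 with vehicle at 40 h. The WT calls were lost without any one of 4 of 6 arrays at each time, with adjusted p up to 0.144 at 4 h and 0.163 at 40 h, and at 4 h without the arrays of high Gapdh ratio (adjusted p = 0.313). The averaged WT effect of 0.77 ± 0.12 (adjusted p = 0.000813) held under all 20 alternatives.

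Il13ra2, a decoy receptor for Il13 that the rule leaves out of the members, read 188, 251 and 111.5 with P4 in WT uteri at 4 h, against 59.3, 57.6 and 73.5 with vehicle. It rose by 1.12 ± 0.17 (adjusted p = 0.000879). In PRKO uteri at 4 h it averaged 66.4 ± 18.5 with P4 and 56.8 ± 8.01 with vehicle. The PRKO minus WT difference of the averaged effect was -0.60 ± 0.17 for Il13ra2 (adjusted p = 0.217). In that WT average Osmr, the oncostatin M receptor, was lower, at -0.35 ± 0.08 (adjusted p = 0.0224), and leaving out any one of 6 arrays lost the call (adjusted p up to 0.0805). Under P4 at 40 h 5 of 59 genes of the list differed between PRKO and WT (2.59% of all probe sets passed). There 17 were at an unadjusted p under 0.05 (22.2% of all). Ackr3, a scavenging receptor for Cxcl12, read 348.5, 405.5 and 349 in PRKO, against 178, 191 and 215 in WT, and was higher in PRKO by 0.82 ± 0.15 (adjusted p = 0.00342). Osmr was higher by 0.41 ± 0.11 (adjusted p = 0.0498). Myd88 was lower in PRKO, at -1.14 ± 0.17 (adjusted p = 0.000424), as were Csf1r, the macrophage growth factor receptor, at -0.45 ± 0.10 (adjusted p = 0.0209), and the transcription factor Rel, at -0.27 ± 0.07 (adjusted p = 0.047). The calls of Osmr, Csf1r and Rel were each lost on leaving out single arrays, with adjusted p up to 0.248 for Osmr, 0.175 for Csf1r and 0.178 for Rel. Casp1, the protease that activates Il1b and Il18, had a 40 h minus 4 h difference of the WT P4 effect of 0.51 ± 0.11 (adjusted p = 0.043).

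Markers of other cells moved with several of these results. With limma, none of 13 pan-leukocyte, 14 macrophage, 11 neutrophil, 4 eosinophil, 12 T cell, 8 B cell, 6 natural killer or 5 dendritic cell genes passed for P4 in WT uteri at either time or between genotypes in vehicle uteri. At an unadjusted p under 0.05, P4 in WT uteri at 4 h gave 3 pan-leukocyte genes and 0 in each of the other lists just named (6.23% of all probe sets). At 40 h it gave 2 pan-leukocyte, 3 neutrophil, 2 T cell and 1 eosinophil genes (11.7% of all). There it gave 0 macrophage, B cell, natural killer and dendritic cell genes. Of 10 mast cell genes, Hdc, the enzyme that makes histamine, was lower in PRKO than in WT vehicle uteri at both times. It was at -1.35 ± 0.23 (adjusted p = 0.0126) at 4 h and -1.36 ± 0.23 (adjusted p = 0.0225) at 40 h, beside the Cxcl14 and Il18r1 values there. No other gene of that list passed there, 4 of 10 were above 0 at each time, and the list medians were -0.012 and -0.033. In the averaged P4 effect in WT uteri Hdc was the 1 mast cell gene that passed, and it was higher. The summed pan-leukocyte signal was 4485 to 4784 with P4 and 4636 to 5090 with vehicle in WT uteri at 4 h. At 40 h it was 4956 to 5202 with P4 and 4998 to 5650 with vehicle in PRKO uteri, and 4859 to 5145 with P4 and 4989 to 5494 with vehicle in WT uteri. Under P4 at 40 h 4 genes of the leukocyte lists differed between PRKO and WT (2.59% of all probe sets passed), and 3 of them were lower in PRKO. Hdc, the 1 gene of the mast cell list that passed, was at -1.56 ± 0.23 (adjusted p = 0.000408). In that list 0 of 10 genes were above 0, and the list median was -0.183. The macrophage gene Cd14 was at -0.54 ± 0.11 (adjusted p = 0.0141), with 2 of 14 above 0, and the T cell gene Cd6 at -0.50 ± 0.13 (adjusted p = 0.0467), with 2 of 12 above 0. The pan-leukocyte gene Ptprc was higher, at 0.41 ± 0.11 (adjusted p = 0.0475), with 6 of 13 above 0 and a list median of -0.007. Fat markers moved with P4 in WT uteri at 40 h, where 5 of 9 were lower (1.54% of all probe sets passed), among them Adipoq at -1.41 ± 0.25 (adjusted p = 0.00384). Under P4 at 40 h 4 of 9 were higher in PRKO than in WT (2.59% of all passed). Epithelial and stromal markers moved with P4 in WT uteri at 40 h as well, where the same 1.54% of all passed. For P4 in WT uteri at 40 h 2 of 12 epithelial genes were lower, Krt7 at -0.65 ± 0.12 (adjusted p = 0.00381) and Tspan8 at -0.93 ± 0.17 (adjusted p = 0.00384), with a list median of -0.33. Tspan8 was also lower at 4 h, at -0.95 ± 0.17 (adjusted p = 0.0044), with 6 of 12 epithelial genes at an unadjusted p under 0.05 (6.23% of all). Of 11 stromal genes 4 were higher at 40 h, Col1a1, Col1a2, Col3a1 and Hoxa11, at 0.66 to 0.91 with a list median of 0.42, and 1 of 10 endothelial genes, Cldn5, was lower, at -0.79 ± 0.18 (adjusted p = 0.024). The summed stromal signal in WT uteri at 40 h was 34051 to 38411 with P4 and 23985.5 to 30332 with vehicle. The summed epithelial signal was 10125 to 11316 with P4 and 10971 to 12182 with vehicle. Between genotypes under P4 at 40 h, Krt7 and Tspan8 were higher and Cldn3, Col1a1, Col1a2 and the muscle gene Myh11 lower in PRKO than in WT. The summed fat marker signal at 40 h was 13330 to 15742 with P4 and 16090 to 18465 with vehicle in PRKO uteri, and 6123 to 10628 with P4 and 14678 to 17007 with vehicle in WT uteri. The part of these cells in the values of the members at 4 h and 40 h was not tested, and at 4 h 0 of 9 fat markers passed in WT uteri (1 at an unadjusted p under 0.05).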

How the data were processed

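Whole-uterus RNA was hybridized to 24 Affymetrix mouse arrays in 8 groups. The authors deposited linear signal intensity for every probe set, and 35 of 299712 values were exactly 0. The submitters' processing notes name MAS5, with no version here and no statement on scaling between arrays. Signals were therefore rescaled to a 2%-trimmed mean of 500, by factors of 0.954 to 1.03. Adding 32 before log2 compresses changes of low signals. The 66 control probe sets were left out, and no filter was set on low signals.

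Group means of all 24 arrays were fitted with limma 3.58.1 in R 4.3.3, with an intensity trend in the prior variance, 16 residual and 4.98 prior degrees of freedom, and a median SE of 0.102. Tests were two-sided. P-values were adjusted by Benjamini-Hochberg over 12422 probe sets within each of 9 comparisons, and 6 comparisons were added after seeing the data. The fit was tested on simulated data. Names came from the platform annotation, updated by gene ID through a RefSeq GRCm38.p6 table, where all 91 members matched. The build used for probe design was not stated.

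Members, lists and rules were chosen with earlier results of these data known. Named were members that passed, the 3 of highest signal in each class, the extreme changes of each comparison (4 at each end for P4 in WT uteri, 2 elsewhere), partners of passing members, and signalling genes that passed. The added comparisons were prompted by values already seen. Outside the rule Ccl1, Ccl8, Ccl25, Ccr7, Il5ra, Il6 and the marker genes were named after their values were seen. Deviations of same-numbered arrays from their group means correlated by 0.114 to 0.516 in the WT 4 h comparison, all above 0.1. This was not so in the other comparisons of 3 arrays with 3, so the block stands beside that result only. Even in the WT 4 h comparison not every array correlated best with its own number. Alternatives were offsets of 16 and 64, signals as deposited, quantile normalization, probe sets of mean signal of at least 100, no trend, arrays of 1 time, a replicate block, leaving out arrays of Gapdh ratio over 3, and leaving out each array.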

Additional observations from a re-analysis of the deposited data

Results flagged for a closer look

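Among the members and the genes of the signalling list, 2 had effects that differed by the test of the difference itself. Marker genes passed such tests as well. Tspan8 passed in the PRKO minus WT difference of the averaged P4 effect, with a positive difference. Col1a2 and Col3a1 passed in the 40 h minus 4 h difference of the WT P4 effect, also with positive differences. Myd88 had a PRKO minus WT difference of the averaged P4 effect of -0.794 (SE 0.166, adjusted p = 0.0472), with an averaged effect of -0.02 ± 0.12 in PRKO uteri and 0.77 ± 0.12 in WT uteri. The difference passed in 10 of 32 alternatives, and its adjusted p ranged up to 0.123. Casp1 had a 40 h minus 4 h difference of the WT P4 effect of 0.514 (SE 0.113, adjusted p = 0.043), with an effect of 0.24 at 40 h (adjusted p = 0.174) and -0.28 ± 0.08 at 4 h (adjusted p = 0.185). It passed in 9 of 20 alternatives, and its adjusted p ranged up to 0.204.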

How the results depend on the processing

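Of 123 counts of passing members under settings other than leaving out an array, 107 were equal to or within 1.5 times the reported count and 16 were not. With the replicate number as a block, 2 members passed for P4 in WT uteri at 4 h, 1 at 40 h (Cxcr4), 2 between genotypes in vehicle uteri at 4 h and 1 at 40 h (Cxcl14 added in each), 1 in the 40 h minus 4 h difference (Cxcl14), 1 in the averaged PRKO minus WT difference (Cxcr4) and 9 under P4 at 40 h. Beyond WT 4 h no comparison of 3 arrays with 3 had every same-number correlation over 0.1. For P4 at 40 h every array still correlated best with its own number, in PRKO uteri (0.0668 to 0.481) and in WT uteri (0.0686 to 0.142), which is a hint from the data and not from the design. With the arrays of that time alone, the counts were 2 for P4 in WT uteri at 40 h (Cxcr4, Cxcl14), 1 for the PRKO minus WT difference at 40 h (Cxcr4, adjusted p = 0.00616), 0 and 1 between genotypes in vehicle uteri at 4 h and 40 h, and 0 and 12 between genotypes under P4 at 4 h and 40 h. Between genotypes in vehicle uteri at 4 h, 0 passed with signals as deposited (Il18r1, adjusted p = 0.0508) and 0 without the arrays of high Gapdh ratio (Il18r1, adjusted p = 0.161), and that last setting gave 1 for P4 in WT uteri at 4 h. It could not be run where those arrays take no part. The causes were not tested. Shares of all probe sets under these alternative settings are not given beside the counts, so a rise or fall is not a trait shown for the members. Over all probe sets, calls for P4 in WT uteri at 40 h also rose with the block and with that time alone.

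Leaving out single arrays gave 0 to 2 members for P4 in WT uteri at 4 h and 0 to 1 at 40 h, 0 to 1 between genotypes in vehicle uteri at 4 h, 0 to 1 in the 40 h minus 4 h difference, 1 to 3 in the averaged WT effect, 0 to 1 in its difference between genotypes, 1 to 2 in the averaged vehicle comparison, and 0 to 1 and 2 to 5 between genotypes under P4 at 4 h and 40 h. It gave 0 to 0 in the others. Of 1500 values of named genes, 2 turned in sign, both of Cxcl1 on its probe set with the suffix g for P4 in WT uteri at 4 h. That change was -0.22 as reported, 0.19 without the arrays of high Gapdh ratio, and -0.38 to 0.072 on leaving out single arrays, above 0 without WT vehicle array 2. In 100 a call was lost and in 21 one was gained. Over all probe sets, 88 passed for P4 in WT uteri at 4 h, against 29 with that time alone and 29 without the arrays of high Gapdh ratio, and 191 at 40 h, against 539 with that time alone and 386 with the block.

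Low signals cannot be told from background, the RNA of 5 mice was pooled, and 3 arrays per group leave small changes undetected.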
